A study of Mus musculus with 44 samples.

Results

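The cochlear nucleus is the brainstem nucleus where the auditory nerve ends, and in young mice it is still maturing around the time when hearing begins. The P7 control nuclei are the cochlear nuclei of mice that had 1 cochlea removed at postnatal day 7 (P7), taken from the side that kept its cochlea. They were collected 6, 12, 24 and 48 h after the operation. All arrays that the labels call P7 controls were used, 11 of the 44 in the series, with 2 at 6 h and 3 each at 12, 24 and 48 h. Of the other arrays, 11 hold P7 nuclei on the side of the removed cochlea (deafferented), and the rest hold the same 2 kinds of nucleus after surgery at postnatal day 21 (P21). No strain, genotype, sex or number of animals is given in the sources used here. Every control nucleus comes from an operated mouse, and mice without surgery are not analysed here. Time after surgery, the age of the animal and the hour of day therefore move together, and what each contributes to a change cannot be told apart. Per the labels, replicates are pools made separately, so p-values measure the spread between pools.

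Around the end of the first postnatal week oligodendrocytes wrap axons with myelin, a membrane rich in cholesterol, and neurons replace the proteins of axon growth with those of mature transmission. Glucocorticoids, which surgery and stress raise, switch on a set of responsive genes in brain cells. Most cells also carry a circadian clock, in which activators bind E-box sequences and drive their own repressors. The 4 collection times sample such a cycle at few points, and the sources used here do not give the hour of surgery.

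Affymetrix arrays measured total RNA, and values are log2 levels for 22626 probe sets. The 11 arrays had medians between 5.99 and 6.14, with 59.3% to 61.8% of probe sets above a log2 level of 5, and correlated with each other at r between 0.929 and 0.989. Most neuronal and auditory brainstem markers were present: Snap25, a vesicle fusion protein, lay between 11.94 and 12.61, and Atoh7, of bushy cells, between 9.10 and 10.40. Slc6a5, also listed for neurons, lay between 2.66 and 3.56, below a log2 level of 5. The other measured members of these lists lay above 5 in all 11 arrays, with Syt1 reaching down to 5.58. Of the 3 forebrain genes listed as an absence check only Neurod6 was measured, between 6.76 and 7.92. It thus lay above a log2 level of 5 in all 11 arrays, so the absence check was not met. Markers of neighbouring tissue were present too: Ttr and Folr1, of the choroid plexus, lay between 14.19 and 14.99 and between 7.56 and 10.79, and Dcn, of the meninges, between 8.88 and 10.23. Of the red blood cell markers, Hba-a1, whose probe set did not pass the filter, stayed between 2.35 and 2.65, while Alas2 lay between 6.20 and 7.80.

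Replicate 3 of 12 and 48 h stood apart from replicates 1 and 2 at both ages and on both sides of the brain, 8 arrays in all. Their average shift is shared by all 8 arrays of 6 h. Among P7 controls the correlation of an array's deviation with that shift was 0.642 and 0.694 for the replicate 3 arrays, 0.484 and 0.563 for the 6 h arrays, and between -0.669 and -0.229 for the other 7. The arrays of 6 h thus resemble replicate 3 of later times in this respect, and nothing in the labels says why. The fit used here has 1 term for the 8 replicate 3 arrays, which leaves 6 h uncorrected. Comparisons that use 6 h are therefore given beside 48 h minus 12 h, where both times hold the same mix of arrays, and beside a fit whose term also covers 6 h. In all lists of values below, replicate 3 comes last, and an SE belongs to the fitted change, not to the plain means.

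**Figure D1:**
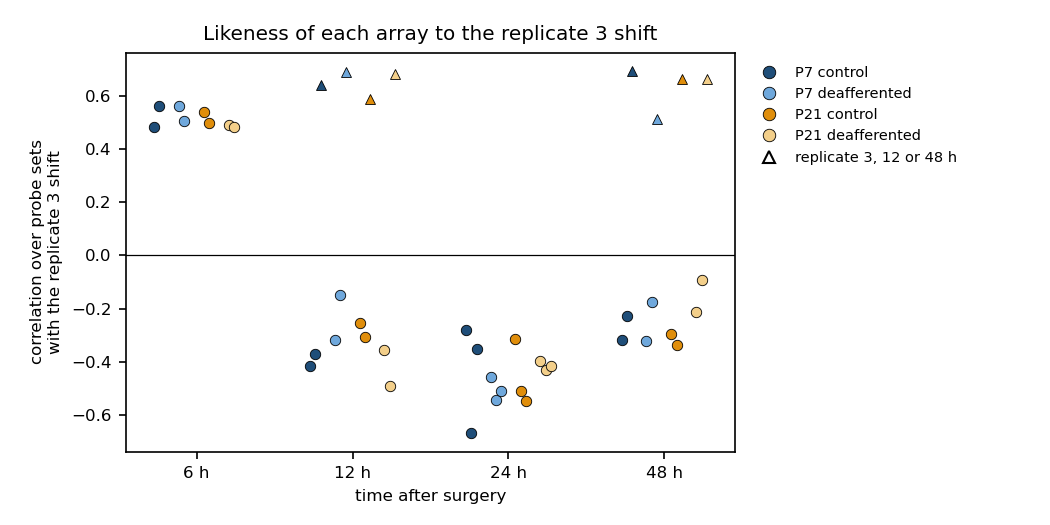
Correlation of each of the 44 arrays' deviations with the average shift of the 8 replicate 3 arrays of 12 and 48 h, by group. All 6 h arrays (0.481 to 0.563) lie with the replicate 3 arrays (0.511 to 0.694), and all others lie between -0.669 and -0.0941.

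The main comparison asked how the P7 control nucleus 48 h after surgery differed from the mean of the 6 and 12 h groups, which spans about 2 days of postnatal life. Genes of mature myelin and of cholesterol synthesis were higher at 48 h, with the GABA-A receptor subunit Gabra6, the calcium buffer Pvalb and the thyroid hormone activating enzyme Dio2. Genes of immature neurons and growing axons were lower, as were 3 of 20 measured glucocorticoid-responsive genes, of which 2 others were higher. Of 8886 genes, each read from 1 probe set, 476 rose (5.36%) and 361 fell (4.06%) at a limma adjusted p under 0.05. For 48 h minus 12 h these were 166 (1.87%) and 103 (1.16%), and with the term over 6 h as well 286 (3.22%) and 387 (4.36%). The genes called the same way in all 3 numbered 142 higher (1.6%) and 76 lower (0.855%), and they are called stable below. Counts within gene lists are to be read beside these shares. The 3 calls share the 48 h arrays, and each fit has a term for replicate 3. Stable therefore does not mean called without the term or with an array left out. Gjb1, called in all 3, had a limma adjusted p of 0.0625 without the term. Of the 476 genes that rose, 48 h minus 12 h was above 0 for 471 within replicates 1 and 2 and for 395 within replicate 3. Of the 361 that fell, 353 were below 0 within replicates 1 and 2 and 309 within replicate 3. The calls use these same arrays, so these signs are no separate support. Over probe sets, 1333 were called (8.7%), and leaving out 1 P7 control array cut this most for replicate 2 of 48 h (533), replicate 1 of 48 h (652) and replicate 2 of 6 h (773). In bulk RNA, a change in the number of cells of a type and a change in RNA per cell cannot be told apart.

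Myelin genes gave the clearest rise. Of 20 measured genes of myelin and mature oligodendrocytes, 14 rose and none fell, with a median change of 1.05 against -0.01 over all genes. Of the 14, 13 were stable, and from 12 to 48 h 13 rose and none fell, with the same median of 1.05. Mog, a glycoprotein on the outer face of myelin, measured 8.65 and 8.48 at 6 h, 8.12, 8.23 and 8.27 at 12 h, 7.95, 9.58 and 8.83 at 24 h, and 10.53, 10.38 and 9.22 at 48 h. All 48 h arrays were above all 6 and 12 h arrays, and replicate 3 was the lowest of them. Mog rose 3.3-fold over the early mean (log2 change 1.72 ± 0.24 SE, limma adjusted p = 2.03e-05) and by 1.84 ± 0.26 over 12 h (adjusted p = 0.000152). Within replicates 1 and 2 its 48 h minus 12 h difference was 2.28, and within replicate 3 it was 0.95.

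Fa2h, which hydroxylates the fatty acids of myelin lipids, showed the same order of times. It measured 8.67 and 8.15 at 6 h, 8.26, 8.50 and 8.08 at 12 h, 8.09, 9.27 and 9.22 at 24 h, and 9.96, 10.18 and 8.90 at 48 h. It rose by 1.46 ± 0.20 (adjusted p = 1.71e-05). The replicate 3 array of 48 h exceeded every early array but lay below 2 of the 24 h arrays.

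Gjb1, the connexin 32 of oligodendrocyte gap junctions, differed between replicate 3 and the other arrays of 48 h. Its levels were 5.38 and 4.82 at 6 h, 5.08, 5.43 and 4.48 at 12 h, 5.21, 6.43 and 6.47 at 24 h, and 7.41, 7.40 and 5.13 at 48 h. The replicate 3 array of 48 h lay among the early arrays and exceeded replicate 3 of 12 h by 0.64. With the term Gjb1 rose by 1.82 ± 0.26 (adjusted p = 3.37e-05), and without it the adjusted p was 0.0625. Septin4, a septin of myelinating cells, was more even: it rose by 1.04 ± 0.15 (adjusted p = 4.51e-05), with 10.05, 10.38 and 9.59 at 48 h against values from 8.91 to 9.02 at 6 and 12 h.

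Mobp, a protein of compact myelin, rose by 1.42 ± 0.22 (adjusted p = 0.00011), and Mag, the adhesion protein facing the axon, by 1.07 ± 0.22 (adjusted p = 0.00185). The brightest probe set of Mbp, the basic protein of compact myelin, was not called (0.25, adjusted p = 0.184), whereas 4 of its 8 probe sets rose, by 0.37 to 1.09 (adjusted p from 0.00494 to 0.0486). It lay between 13.52 and 14.45 in all 11 arrays, near the top of the scale, and its change was 0.25 ± 0.12 (adjusted p = 0.184). Among the genes with the largest increases at 48 h were further oligodendrocyte genes. S1pr5, a sphingosine phosphate receptor of oligodendrocytes, rose 2.82-fold, and Tspan2, a tetraspanin of the same cells, 2.8-fold. Padi2, an enzyme that citrullinates myelin basic protein, rose 3.11-fold, but within replicate 3 its 48 h minus 12 h difference was -0.32. Ppp1r14a, an inhibitor of myosin phosphatase, rose 3.37-fold, with differences of 2.77 within replicates 1 and 2 and 1.62 within replicate 3.

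Genes of oligodendrocyte precursors did not follow. None of 12 measured genes of precursors and newly formed oligodendrocytes passed the test in either direction for 48 h against the early mean. Pdgfra, the growth factor receptor that marks precursors, changed by 0.02 ± 0.14 (adjusted p = 0.95) and lay between 9.15 and 9.60 in all arrays. The mean level of the myelin list placed replicate 1 of 24 h apart from its group. That array stood at 9.31, just below the 9.32 to 9.70 of the early arrays. The other 24 h arrays stood at 10.19 and 10.02 and the 48 h arrays at 10.63, 10.78 and 9.84.

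**Figure D2:**
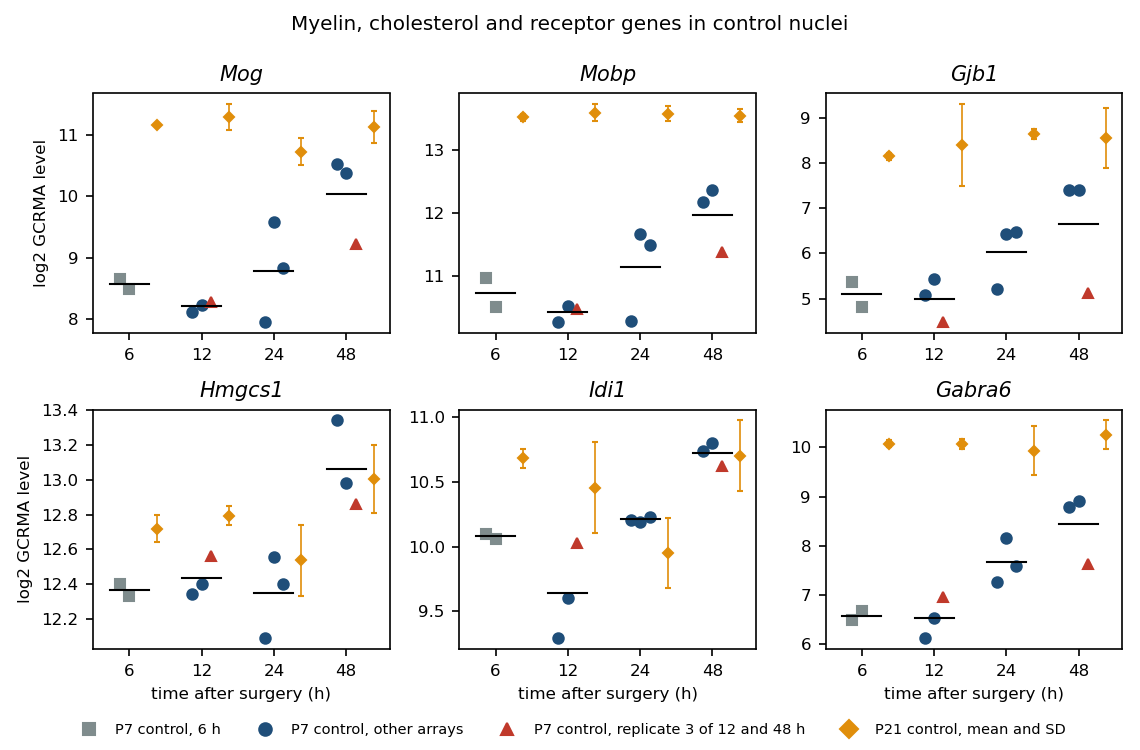
Log2 levels of 6 genes that rose at 48 h in P7 controls, by hours after surgery. Grey squares are 6 h arrays, red triangles replicate 3 of 12 and 48 h, blue circles the other arrays, black lines group means, and orange diamonds P21 control means ± SD. Mog reaches 10.53 and 10.38 in replicates 1 and 2 of 48 h against 9.22 in replicate 3.

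The enzymes of cholesterol synthesis rose together by smaller amounts. Of 17 measured genes, 12 rose and none fell, with a median change of 0.65, and 8 of the 12 were stable. From 12 to 48 h 8 rose and the median was 0.58. Without the term 7 rose against the early mean. The mean level of the list was 8.64 and 8.58 at 6 h, 8.47, 8.51 and 8.53 at 12 h, and 9.29, 9.31 and 8.67 at 48 h. Replicate 3 of 48 h thus lay only a little above the early arrays. Hmgcs1, which condenses acetyl units ahead of the rate-limiting reductase, measured 12.40 and 12.33 at 6 h, 12.34, 12.40 and 12.56 at 12 h, 12.09, 12.56 and 12.40 at 24 h, and 13.34, 12.98 and 12.86 at 48 h. The 48 h arrays, replicate 3 included, were above all 8 others. It rose 1.59-fold (0.67 ± 0.12, adjusted p = 0.000522).

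Idi1, an isomerase of isoprenoid building blocks, measured 10.10 and 10.06 at 6 h, 9.29, 9.60 and 10.03 at 12 h, 10.21, 10.19 and 10.23 at 24 h, and 10.74, 10.80 and 10.62 at 48 h. Its 48 h arrays were again the highest, with the 24 h arrays between them and the early ones. Idi1 rose by 0.81 ± 0.14 (adjusted p = 0.00036). Msmo1, a demethylase of late sterol synthesis, rose by 0.86 ± 0.17 (adjusted p = 0.00122), and Mvd, which makes isopentenyl diphosphate, by 0.79 ± 0.17 (adjusted p = 0.00335). Mvd is the less secure: with 1 array left out at a time its adjusted p reached 0.0732.

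Sterol genes are known to be driven by SREBP factors, which bind a sterol response element. The element spelled TCACNCCAC, searched on both strands, is in 1.24% of the 32851 mouse promoters of RefSeq (GRCm38.p6), each taken as 250 bases before to 50 after the start. Of the 13 measured cholesterol genes with a promoter there, 1 holds it, Hmgcs1. Its stretch at chr13:119690188-119690247, plus strand, is shown because it is the 1 match in a list whose members rose together, with the element in capitals 137 bases before the start:
Hmgcs1: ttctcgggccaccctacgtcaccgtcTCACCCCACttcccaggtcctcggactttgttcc
The match is a description of the letters in this window.

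Genes of immature neurons moved the other way. Of 26 measured genes of immature neurons and axon growth, 15 fell and none rose, with a median change of -0.46, and 8 of the 15 were stable. From 12 to 48 h 8 fell and the median was -0.53. All 15 were lower at 48 h than at 12 h both within replicates 1 and 2 and within replicate 3. Of all 361 genes that fell, 353 and 309 were so, and the calls use these same arrays. St8sia2, which adds the polysialic acid that young neurons carry on their adhesion molecules, measured 6.60 and 7.20 at 6 h, 7.45, 7.83 and 6.65 at 12 h, 6.09, 6.37 and 6.61 at 24 h, and 5.42, 5.96 and 5.63 at 48 h. No 48 h array overlapped the earlier ones. The log2 level of St8sia2 fell by 1.44 (± 0.23, adjusted p = 0.000117), and by 1.64 from 12 h (adjusted p = 0.000214).

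Dpysl3, a collapsin response mediator of growth cones, measured 12.16 and 12.12 at 6 h, 12.30, 12.16 and 12.16 at 12 h, 11.55, 11.74 and 11.95 at 24 h, and 11.41, 11.33 and 11.53 at 48 h. The arrays of each later time lay below all of the early ones. It fell by 0.74 (± 0.12, adjusted p = 0.000129), with differences from 12 h of -0.86 within replicates 1 and 2 and -0.62 within replicate 3. Dpysl5, of the same family, fell by 0.86 (± 0.18, adjusted p = 0.00165). Stmn2, a tubulin-binding protein of growing axons, fell by 0.28 (± 0.07, adjusted p = 0.0146), and its adjusted p reached 0.11 with 1 array left out.

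For 3 further genes the probe set used was called against the early mean and not against 12 h alone. Gap43, a membrane protein of growth cones, fell by 1.32 (± 0.28, adjusted p = 0.00233), and its difference from 12 h alone was -1.04 (adjusted p = 0.0649). Sox11, a transcription factor of new neurons, fell by 1.22 (adjusted p = 0.00275), with -0.69 from 12 h (adjusted p = 0.222). Dcx, the microtubule protein of migrating neurons, fell by 1.15 (adjusted p = 0.0132), with -1.06 from 12 h (adjusted p = 0.08), and a second probe set of Dcx fell by 1.41 (adjusted p = 0.00414) and by 1.32 from 12 h (adjusted p = 0.0335).

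Of 29 measured genes of cell division, 5 fell and none rose, beside 4.06% of all genes that fell, with a median change of -0.35, and for 48 h minus 12 h 2 fell, beside 1.16%. Birc5, an inhibitor of apoptosis that acts in mitosis, fell by 1.00 (± 0.23, adjusted p = 0.0042), with 5.47, 4.58 and 5.55 at 48 h, and its adjusted p reached 0.0948 with 1 array left out. Mcm7, a helicase subunit of DNA replication, fell by 0.78 (adjusted p = 0.00489). The proliferation markers Mki67 (-0.61 ± 0.28, adjusted p = 0.179) and Top2a (-0.30 ± 0.25, adjusted p = 0.52) did not pass the test.

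**Figure D3:**
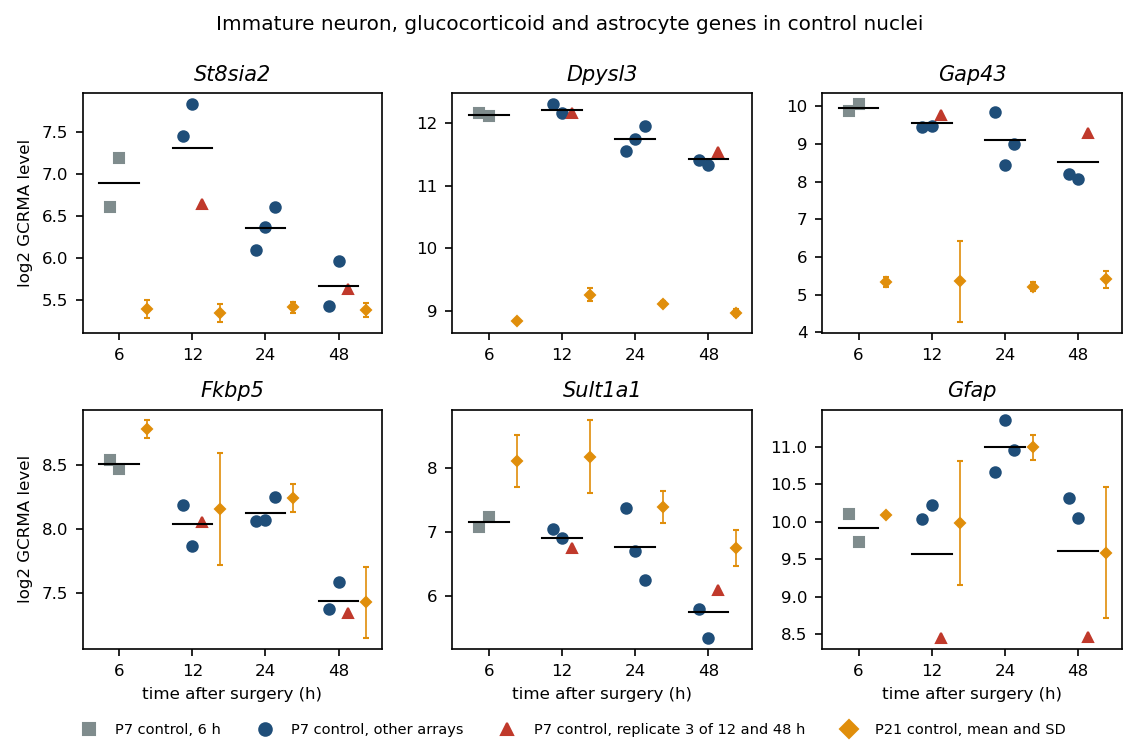
Log2 levels of 5 genes that fell at 48 h in P7 controls and of Gfap, by hours after surgery, with the symbols of the myelin plot. St8sia2 lies between 5.42 and 5.96 at 48 h and between 6.60 and 7.83 at 6 and 12 h. Gfap is highest at 24 h, and its replicate 3 arrays of 12 and 48 h (8.45 and 8.46) lie far below replicates 1 and 2.

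Of 14 measured transmitter receptor genes, 4 rose, beside 5.36% of all genes, and none fell, and 2 of the 4 were stable, beside 1.6%. The largest increase of all named genes was that of Gabra6, a GABA-A receptor subunit of granule cells. It measured 6.49 and 6.68 at 6 h, 6.12, 6.52 and 6.97 at 12 h, 7.27, 8.16 and 7.59 at 24 h, and 8.79, 8.92 and 7.64 at 48 h. Both later times lay wholly above the early ones, with replicate 3 of 48 h among the 24 h arrays. Gabra6 rose 3.84-fold (1.94 ± 0.26, adjusted p = 1.62e-05), and its adjusted p stayed at or below 0.00114 with any single P7 control array left out.

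None of the other 11 measured members of the granule cell list rose. Of 12 measured genes of granule cells, which occur in the cochlear nucleus and the neighbouring cerebellum, Gabra6 was the 1 that rose and 3 fell. Cbln3, a granule cell protein, lay between 5.62 and 6.07 in all arrays. Pcp2, of cerebellar Purkinje cells, lay between 5.40 and 8.23, and of 9 genes of Purkinje and molecular layer cells 2 rose. The part of these cells in the result was not tested. Gabrd, a subunit that pairs with Gabra6 in granule cells, rose by 0.67 (± 0.22, adjusted p = 0.0492), a call that ended with 1 array left out (adjusted p = 0.326). Gabrb1 rose by 0.55 (adjusted p = 0.0134) but had a difference of 0.16 from 12 h (adjusted p = 0.698), and Glrb, the glycine receptor beta subunit, rose by 0.53 (adjusted p = 0.0499), with 0.54 from 12 h (adjusted p = 0.132). Glra1, the partner subunit, stayed at log2 levels of 3.04 to 4.38, below the limit of 5.

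Of 15 measured calcium buffers and neurofilaments, 4 rose and 1 fell, beside 5.36% and 4.06% of all genes, with 2 stable. Pvalb, parvalbumin, the calcium buffer of fast-firing neurons, measured 10.61 and 10.80 at 6 h, 10.98, 11.10 and 11.17 at 12 h, 11.61, 11.44 and 11.81 at 24 h, and 11.52, 11.99 and 11.65 at 48 h. All arrays of 24 and 48 h lay above all of 6 and 12 h, and these later times overlapped each other. Pvalb rose by 0.80 (± 0.13, adjusted p = 0.000126). Nefh, the heavy neurofilament of large axons, rose by 1.08 (± 0.17, adjusted p = 7.3e-05), with 12.18, 12.45 and 11.57 at 48 h against values from 10.79 to 11.47 early. Its 48 h minus 12 h difference was 1.02 within replicates 1 and 2 and 0.25 within replicate 3.

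Ion channels and vesicle proteins gave mixed counts. Of 18 measured channel and chloride transport genes, 3 rose and 1 fell, beside 5.36% and 4.06% of all genes. Kcnab1, a beta subunit of potassium channels, rose by 0.71 (± 0.12, adjusted p = 0.000274) and was stable. Kcna1, a low-threshold potassium channel that auditory neurons carry, rose by 0.80 (± 0.21, adjusted p = 0.0129), with 0.56 from 12 h (adjusted p = 0.202). The potassium channel gene Kcnc1 (-0.20 ± 0.22, adjusted p = 0.666) and the chloride exporter gene Slc12a5 (0.33 ± 0.14, adjusted p = 0.154) were not called against the early mean.

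Of 23 measured genes of synaptic vesicles and release, 6 rose and 1 fell, beside 5.36% and 4.06% of all genes. The stable member was Snap25, which rose by 0.46 (± 0.08, adjusted p = 0.000412). Vamp1, a vesicle fusion protein of fast synapses, rose by 0.75 (adjusted p = 0.00176), with 0.56 from 12 h (adjusted p = 0.0689). Syt2, the calcium sensor of many auditory synapses, rose by 0.76 (adjusted p = 0.0311), with 0.53 from 12 h (adjusted p = 0.294).

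Thyroid hormone drives much of early postnatal brain maturation. Of 11 measured thyroid hormone responsive genes, 3 rose and 1 fell, beside 5.36% and 4.06% of all genes. For 48 h minus 12 h 3 rose and none fell, beside 1.87% and 1.16%. Dio2, the deiodinase of astrocytes that makes active hormone, measured 6.31 and 6.68 at 6 h, 5.29, 5.63 and 7.07 at 12 h, 6.54, 7.69 and 7.36 at 24 h, and 8.06, 8.84 and 7.15 at 48 h. It rose 3.4-fold (1.76 ± 0.34, adjusted p = 0.000934). The rise came from replicates 1 and 2, where 48 h exceeded 12 h by 2.99, while replicate 3 differed by 0.09.

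Klf9, a transcription factor that thyroid hormone and glucocorticoids both induce, measured 10.07 and 10.13 at 6 h, 9.73, 10.04 and 10.47 at 12 h, 10.46, 10.68 and 10.41 at 24 h, and 10.71, 11.13 and 10.78 at 48 h. Its 48 h arrays were the highest, and it rose by 0.76 (± 0.13, adjusted p = 0.000292). Other probe sets of Klf9 rose against the early mean by 1.47 and 1.49 (adjusted p = 2.03e-05 and 6.57e-05). The rest were not called (adjusted p from 0.141 to 0.244). From 12 h only the probe set shown was called (0.79, adjusted p = 0.00125), and the others had adjusted p-values from 0.234 to 0.85. Hr, a corepressor that is a direct thyroid hormone target, measured 4.93 and 5.20 at 6 h, 5.02, 4.28 and 4.70 at 12 h, 5.31, 6.19 and 6.19 at 24 h, and 6.36, 6.45 and 4.88 at 48 h. Hr rose by 1.14 (± 0.27, adjusted p = 0.0068), but its replicate 3 array of 48 h lay among the early arrays and the adjusted p was 0.0967 without the term and up to 0.0811 with 1 array left out. Another, dimmer probe set of Hr (mean 4.83) was not called. It changed by 0.17 from the early mean (adjusted p = 0.594) and 0.26 from 12 h (adjusted p = 0.543).

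Astrocyte genes changed in part. Of 21 measured genes of astrocyte maturation, 6 rose and 1 fell, beside 5.36% and 4.06% of all genes, and 5 of these 7 were stable. Besides Dio2 these included Ntsr2, a neurotensin receptor of astrocytes, which rose by 1.10 (± 0.20, adjusted p = 0.000513), and Kcnj10, the potassium channel that clears the ion from the extracellular space, which rose by 0.77 (± 0.13, adjusted p = 0.00036). Gpr37l1, an orphan receptor of astrocytes, rose by 0.76 (adjusted p = 0.000522). Aqp4, the water channel, was not called (0.25 ± 0.16, adjusted p = 0.368).

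The clock genes were compared for phase, within the limits of 4 times and an unknown hour of surgery. Dbp, an activator of D-box genes whose level swings widely over the day, measured 7.79 and 7.95 at 6 h, 6.88, 7.19 and 7.05 at 12 h, 8.83, 8.96 and 9.04 at 24 h, and 8.72, 8.66 and 8.40 at 48 h. The times did not overlap, and their order was 12 h, 6 h, 48 h and 24 h from low to high. Replicate 3 lay with its group at both times. Dbp rose 3.8-fold from 12 to 24 h (1.92 ± 0.20, adjusted p = 3.63e-07) and 2.94-fold from 12 to 48 h (1.55 ± 0.19, adjusted p = 4.05e-05). Between 24 and 48 h, which are a day apart, the fitted difference was -0.37 ± 0.20 (adjusted p = 0.285).

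The paralogous nuclear receptors Nr1d1 and Nr1d2, repressors of the activator arm, were also higher at 24 h. Nr1d2 measured 9.55 and 9.26 at 6 h, 9.20, 9.24 and 9.35 at 12 h, 9.96, 10.33 and 9.85 at 24 h, and 10.15, 10.19 and 9.53 at 48 h. The replicate 3 array of 48 h fell within the 6 h values. Nr1d2 rose by 0.75 from 12 to 24 h (± 0.16, adjusted p = 0.0211) and by 0.69 from 12 to 48 h (adjusted p = 0.00742). Against the early mean its adjusted p of 0.00273 reached 0.0523 with 1 array left out. Nr1d1 measured 4.09 and 3.76 at 6 h, 4.24, 4.34 and 3.69 at 12 h, 5.33, 6.08 and 5.09 at 24 h, and 4.79, 4.63 and 3.84 at 48 h, so that the 24 h arrays were above all others. It rose by 1.33 from the early mean to 24 h (± 0.31, adjusted p = 0.0093), but its change from 12 h alone, 1.08, had an adjusted p of 0.112, and most of its arrays were below the limit of 5.

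Other clock genes gave no common shift. Of 12 measured genes of the repressor and D-box arm, 3 rose and 1 fell from the early mean to 48 h, with a median of 0.04. Over all genes 5.36% rose and 4.06% fell. For 48 h minus 12 h 2 of the 12 rose, beside 1.87% of all genes. Bhlhe40, a repressor at E-boxes, rose by 1.30 (adjusted p = 0.00609), with 1.11 from 12 h (adjusted p = 0.0722). Nfil3, a repressor at D-boxes, fell by 0.69 (adjusted p = 0.007), with -0.58 from 12 h (adjusted p = 0.0806). With 1 array left out their adjusted p-values against the early mean reached 0.0711 and 0.0579. The period genes Per1 (-0.15 ± 0.22), Per2 (-0.07 ± 0.24) and Per3 (-0.19 ± 0.23) had adjusted p-values from 0.684 to 0.91. Tef, a relative of Dbp, changed by 0.14 ± 0.12 (adjusted p = 0.542). Cry1, a cryptochrome, fell by 0.61 from the early mean to 24 h (adjusted p = 0.0275) and differed by -0.20 between 12 and 24 h (adjusted p = 0.678).

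Of 6 measured genes of the activator arm, 1 rose and 1 fell from the early mean to 48 h, beside 5.36% and 4.06% of all genes. None was called for 48 h minus 12 h. The rise was that of Rora, a receptor of the RORE element (0.74 ± 0.14, adjusted p = 0.0011), and the fall that of the kinase gene Csnk1e (-0.81 ± 0.26, adjusted p = 0.0468). Arntl, which encodes the activator BMAL1, changed by 0.05 ± 0.17 (adjusted p = 0.905), and Npas2, a partner of BMAL1, by -0.13 ± 0.22 (adjusted p = 0.784).

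**Figure D4:**
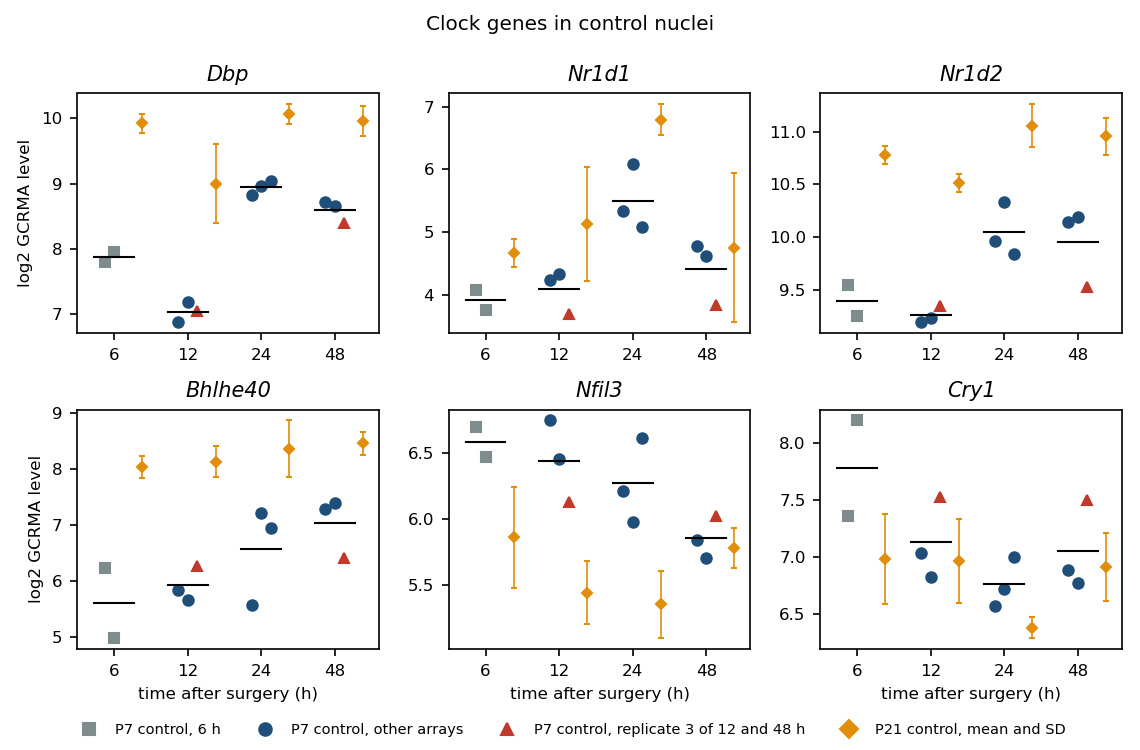
Log2 levels of 6 clock genes in P7 controls by hours after surgery, with the symbols of the myelin plot. Dbp is lowest at 12 h (6.88 to 7.19) and highest at 24 h (8.83 to 9.04), and in P21 controls its mean is also lowest at 12 h (9.001) and lies between 9.93 and 10.06 at the other times.

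The promoters of 5 clock genes are shown because they hold an element through which the clock is known to act and yet belong to genes with different time courses. Of the 10 measured genes of the repressor and D-box arm with a promoter in the RefSeq table (GRCm38.p6), 3 hold an E-box, CACGTG, against 7.15% of all 32851 promoters. The variant CACGTT, called E-prime-box, is in 3 of the 10 against 4.68% of all, and the D-box TTATGTAA in 1 against 0.938%. All were searched on both strands over the same 300 bases. Stretches of 60 bases follow 5′ to 3′ on the gene's strand, with the element each is shown for in capitals. In Nr1d1 it is read as its reverse complement, AACGTG, which the stretch of Cry1 also holds, in lower case.
Nr1d1: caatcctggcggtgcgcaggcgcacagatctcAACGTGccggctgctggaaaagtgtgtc
Per1: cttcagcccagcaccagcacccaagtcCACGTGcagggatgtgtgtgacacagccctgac
Cry1: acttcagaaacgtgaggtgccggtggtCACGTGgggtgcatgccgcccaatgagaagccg
Tef: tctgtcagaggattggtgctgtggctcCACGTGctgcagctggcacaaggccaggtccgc
Per3: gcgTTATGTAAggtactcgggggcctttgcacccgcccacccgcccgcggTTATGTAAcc
They lie at chr11:98775378-98775437 (Nr1d1, minus strand), chr11:69098756-69098815 (Per1, plus), chr10:85185082-85185141 (Cry1, minus), chr15:81802519-81802578 (Tef, plus) and chr4:151044814-151044873 (Per3, minus). The E-boxes of Per1, Cry1 and Tef start 166, 60 and 127 bases before the start of the gene. Per1 and Tef, each with an E-box, were not called at 48 h or 24 h, whereas Nr1d1, with the variant 28 bases before its start, was higher at 24 h against the early mean. The window of Dbp holds none of these letters, which says nothing of its other sequences. Per3 holds 2 D-boxes and did not follow Dbp: its change from 12 to 24 h was 0.43 ± 0.25 (adjusted p = 0.419).

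Genes that respond to glucocorticoids were compared because the animals had been operated on. Of 20 measured, 2 rose and 3 fell from the early mean to 48 h, beside 5.36% and 4.06% of all genes. For 48 h minus 12 h 1 rose and 3 fell, beside 1.87% and 1.16%. Fkbp5, a co-chaperone of the glucocorticoid receptor and among its most responsive targets, measured 8.54 and 8.47 at 6 h, 8.19, 7.87 and 8.06 at 12 h, 8.06, 8.08 and 8.25 at 24 h, and 7.38, 7.59 and 7.35 at 48 h. The 48 h arrays were the lowest and did not overlap any other time. Fkbp5 fell by 0.85 (± 0.15, adjusted p = 0.000371), by 0.60 from 12 h (adjusted p = 0.0396), and by 0.72 from 24 h (adjusted p = 0.0193). In replicate 3 alone its difference from 12 h was -0.71, as large as the -0.54 of replicates 1 and 2. A second, dimmer probe set of Fkbp5 (mean 5.52) was not called. It changed by -0.09 from the early mean (adjusted p = 0.843), -0.17 from 12 h (adjusted p = 0.773) and 0.18 from 24 h (adjusted p = 0.688).

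Sult1a1, a sulfotransferase, measured 7.09 and 7.24 at 6 h, 7.05, 6.91 and 6.76 at 12 h, 7.37, 6.71 and 6.25 at 24 h, and 5.80, 5.34 and 6.10 at 48 h. Again the 48 h arrays were below all others. It fell by 1.35 (± 0.23, adjusted p = 0.000253). Cdkn1a, the cell cycle inhibitor p21, fell by 0.93 (± 0.16, adjusted p = 0.000371), to 7.97, 7.71 and 8.20 at 48 h from values of 8.57 to 9.06 at 6 and 12 h.

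Other well-known glucocorticoid targets did not fall with them. Sgk1, a kinase, changed by 0.12 ± 0.17 (adjusted p = 0.754), Tsc22d3, which encodes GILZ, by 0.09 ± 0.18 (adjusted p = 0.826; a second probe set rose by 0.46, adjusted p = 0.0121), and Zbtb16, a zinc finger factor, by 0.02 ± 0.22 (adjusted p = 0.98). The members that rose were Klf9 and Bcl6, a transcriptional repressor (0.62 ± 0.18, adjusted p = 0.0296, reaching 0.301 with 1 array left out). The glucocorticoid response element, searched by its consensus half-sites on both strands, is in 2 of the 19 measured genes with a promoter, against 0.475% of all promoters.

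Other lists that bear on surgery were compared in the same way. Of 16 measured acute phase and cytokine genes 1 rose and none fell, beside 5.36% and 4.06% of all genes. It was Il6st, a shared cytokine receptor subunit (0.47 ± 0.14, adjusted p = 0.025, reaching 0.187 with 1 array left out). No gene of this list was called for 48 h minus 12 h or without the term. With the term also over 6 h 2 rose, beside 3.22% of all genes. None of 11 interferon response genes and none of 22 heat shock and unfolded protein response genes was called against the early mean or for 48 h minus 12 h. Of 16 immediate early genes, which neuronal activity switches on, Fos (0.90 ± 0.24, adjusted p = 0.0143), Egr1 (0.75 ± 0.23, adjusted p = 0.0369) and Arc (0.77 ± 0.17, adjusted p = 0.00308) rose, 3 of 16 beside 5.36% of all genes. None of them was called for 48 h minus 12 h, where their adjusted p-values were 0.252, 0.288 and 0.0604, nor without the term. Their differences within replicate 3 were 0.04, 0.08 and 0.26.

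Some of the largest declines at 48 h belonged to genes of connective tissue, bone and epithelia. Amn, a membrane protein of absorptive epithelia, fell (-2.14 ± 0.29, adjusted p = 2.03e-05), with 2.52, 4.57 and 3.49 at 48 h against values from 4.31 to 6.67 at 6 and 12 h. All its 48 h values are below the log2 level of 5, so the size of the fall is uncertain. Replicate 2 of 48 h lay above replicate 2 of 12 h, so the times overlapped. Gpc3, a glypican of growing tissues, fell 3.2-fold (-1.68 ± 0.22, adjusted p = 1.63e-05). It measured 7.73 and 7.99 at 6 h, 7.28, 7.78 and 7.18 at 12 h, 7.28, 6.55 and 7.35 at 24 h, and 5.80, 6.20 and 5.93 at 48 h, with no overlap between 48 h and the rest.

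Ibsp, a sialoprotein of bone, varied widely within a time. Its levels were 6.34 and 4.67 at 6 h, 7.89, 4.30 and 6.04 at 12 h, 4.48, 4.65 and 3.19 at 24 h, and 3.05, 3.01 and 4.81 at 48 h, and it fell by 2.27 (± 0.48, adjusted p = 0.00224). Lipf, a gastric lipase, was high in 2 arrays, with 7.42 and 5.98 in replicates 1 and 3 of 12 h and 1.58 to 1.86 in the other 9. Its decline (adjusted p = 0.0414) rests on those arrays, and without the term its adjusted p was 0.103. Of the other large declines, Osr1, Fmod and Prg4, genes of connective tissue and joints, were not called for 48 h minus 12 h (adjusted p = 0.149, 0.0788 and 0.477).

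Markers of the meninges moved with these genes. Of 16 measured genes of meninges and fibroblasts, 8 fell and none rose, with a median of -0.53, and 2 fell for 48 h minus 12 h. Their mean level was 9.21 and 8.97 at 6 h, 8.95, 8.92 and 8.97 at 12 h, 9.17, 8.54 and 8.64 at 24 h, and 8.31, 8.30 and 8.68 at 48 h. Col1a2, a chain of fibrillar collagen, fell by 0.85 (± 0.16, adjusted p = 0.000587). How much meninges each pool held, and its part in the decline of connective tissue genes, was not tested. The 10 measured choroid plexus and ependyma genes gave no call for 48 h against the early mean, while their mean level ranged from 7.54 in replicate 2 of 48 h to 10.25 in replicate 1 of 24 h.

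The other cell type and pathway lists are read for 48 h against the early mean beside 5.36% of all genes that rose and 4.06% that fell. Of 21 measured genes of microglia and macrophages 1 rose, Clec7a, and of 18 of endothelium and pericytes 3 rose, with none lower in either list. None of 7 measured blood genes was called. Of 20 genes of perineuronal nets and extracellular matrix 3 rose and 5 fell. Of 8 genes of bushy and projection neurons 2 rose, Kcna1 and Syt2, and Atoh7 fell. Among general functions, 1 of 24 respiratory chain genes rose, 2 of 16 hypoxia and glycolysis genes rose, and 2 of 21 cytosolic ribosomal protein genes fell. For 48 h minus 12 h, 1.87% of all genes rose and 1.16% fell. There no gene of the microglia, endothelium, blood, respiratory chain, hypoxia or ribosomal lists was called. Of the 20 matrix genes 2 rose and 2 fell, and of the 8 bushy and projection neuron genes none rose and 1 fell.

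The comparison of 48 h with 24 h, a full day apart, was smaller and rested on few arrays. Of 15323 probe sets, 420 were called (2.74%), of which 129 rose (0.842%) and 291 fell (1.9%) at a limma adjusted p under 0.05, which is 82 genes higher (0.923%) and 179 lower (2.01%). The 291 to 129 split depended on scaling: with quantile normalisation 208 rose and 189 fell, and with each array's median subtracted 171 and 148. The number called in all was 66 without replicate 1 of 24 h, 82 without replicate 1 of 48 h and 164 without replicate 2 of 48 h, and it was 1335 without replicate 2 and 1048 without replicate 3 of 24 h. Of the 20 genes named for this contrast, 18 lost their call when some single P7 control array was left out.

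Myelin genes were again among the increases. Of 20 measured, 7 rose from 24 to 48 h and none fell. With no term the count was 1, beside 0.158% of all genes higher and 0.416% lower. Without replicate 1 of 24 h limma called none of the 20, beside 0.124% of all genes higher and 0.383% lower. Mog rose by 1.39 ± 0.27 (adjusted p = 0.00547), and its adjusted p reached 0.0647 with 1 array left out. Klk6, a protease of oligodendrocytes, measured 5.44, 5.75 and 5.39 at 24 h and 6.54, 7.17 and 6.52 at 48 h. It rose by 1.23 ± 0.23 (adjusted p = 0.00547) and kept an adjusted p at or below 0.045 with any single P7 control array left out. Ell2, an elongation factor, rose by 1.12 (adjusted p = 0.0188), and its adjusted p reached 0.141 that way.

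Several of the largest decreases from 24 to 48 h belonged to epithelial and ciliated cell genes that peaked in replicate 1 of 24 h. Krt18, a keratin, measured 8.57, 7.05 and 6.93 at 24 h and 5.69, 4.29 and 5.05 at 48 h, and fell 5.23-fold (adjusted p = 0.0338). Krt8, its partner, measured 7.45, 5.75 and 5.44 against 4.73, 4.52 and 4.81, all below 5 (-1.51 ± 0.40, adjusted p = 0.0379). Foxj1, the master factor of motile cilia, measured 8.28, 7.04 and 7.36 against 6.14, 5.58 and 5.90 (-1.53 ± 0.32, adjusted p = 0.00888). These genes are highest in the array whose choroid plexus and ependyma level is highest, 10.25 against 9.13 and 8.74 in the other 24 h arrays, and the part of that tissue was not tested. With 1 array left out, their adjusted p-values reached 0.187, 0.282 and 0.0925.

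Amn fell from 24 to 48 h as well, by 2.15 (± 0.33, adjusted p = 0.00103), with an adjusted p of at most 0.0159 with any single array left out. Igfbpl1, a binding protein of immature neurons, fell by 1.77 (± 0.43, adjusted p = 0.0233), and its adjusted p reached 0.191 that way. Of the glucocorticoid-responsive genes, 3 of 20 fell, none rose, and without replicate 1 of 24 h none was called.

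The comparison of 24 h with the early mean gave 451 genes higher (5.08%) and 223 lower (2.51%). With the median of each array subtracted, the split over probe sets turned from 696 higher and 430 lower to 473 and 575. Against 12 h alone, 67 genes were higher (0.754%) and 24 lower (0.27%), and with the term over 6 h as well 287 probe sets were called in place of 1126 (7.35%). Without replicate 2 of 6 h 455 were called, without replicate 1 of 24 h 717, and without replicate 3 of 24 h 1911. Dbp, given above, was the named gene with the smallest adjusted p.

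Gfap, the intermediate filament of reactive astrocytes, was highest at 24 h. It measured 10.10 and 9.73 at 6 h, 10.04, 10.23 and 8.45 at 12 h, 10.67, 11.35 and 10.96 at 24 h, and 10.32, 10.05 and 8.46 at 48 h. The 24 h arrays were above all others, and the replicate 3 arrays of 12 and 48 h were more than 1 log2 unit below every other array. Gfap rose by 0.99 from the early mean to 24 h (± 0.18, adjusted p = 0.00107) and by 0.90 from 12 h (adjusted p = 0.0294). It fell by 0.86 from 24 to 48 h (± 0.20, adjusted p = 0.0188), a call that ended without the term (adjusted p = 0.188). From the early mean to 48 h its change was 0.12 ± 0.18 (adjusted p = 0.748), and with the term also over 6 h it turned to -0.66 (adjusted p = 0.0216). Of 18 measured genes of reactive astrocytes, 2 fell from the early mean to 48 h, beside 4.06% of all genes. They were Cp (-0.69, adjusted p = 0.00463) and Vim (-0.60, adjusted p = 0.0326). Neither was called for 48 h minus 12 h, where 2 others fell, Emp1 and Clcf1, beside 1.16%. From 24 to 48 h 4 of the 18 fell and none rose, beside 2.01% of all genes that fell. The count was 0 without the term, beside 0.416%, and 1 without replicate 1 of 24 h, beside 0.383%.

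The difference between 12 and 6 h could not be separated from the shift that the 6 h arrays share. With the term, 282 genes were higher at 12 h (3.17%) and 366 lower (4.12%), or 1320 probe sets (8.61%). Without the term limma called none of 15323, although 1152 had an unadjusted p under 0.05. Extended over 6 h, the term left 103, of which 16 were among the 1320. In 75.2% of the 1320 the replicate 3 array of 12 h lay closer to the 6 h mean than to replicates 1 and 2 of its own time, against 61.9% of all probe sets. The count was 247 without replicate 2 of 6 h and 677 without replicate 1 of 12 h. The largest increases were of Lipf, high in the 2 arrays named above, and Bpifa1, an airway epithelial protein, at 8.60 and 7.73 in the same arrays and between 2.65 and 4.60 in the others. Syt13, a synaptotagmin, rose by 1.93 with the term (adjusted p = 0.00166) and changed by -0.19 with the term also over 6 h (adjusted p = 0.938).

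The P21 control nuclei, collected at the same times after the same operation, were used to ask which P7 changes differed between the ages. This test is of the difference between the 2 changes and is balanced for the array shift. Of 8886 genes, 38 changed more upward (0.428%) and 44 more downward (0.495%) at P7 than at P21, or 61 and 62 of 15323 probe sets (0.803% together). With each array's median subtracted the latter were 84 and 44. Leaving out single P7 control arrays moved the 123 to between 18 (without replicate 2 of 48 h) and 240 (without replicate 3 of 48 h). They were 23 without replicate 1 of 48 h, 59 without replicate 2 of 6 h, 72 without replicate 1 of 12 h and 238 without replicate 1 of 24 h. Of the 10 genes named for this contrast, 8 lost their call with some single array left out.

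Myelin genes differed: 6 of 20 rose more at P7 and none less. In P21 controls Mog was already high, with group means between 10.73 and 11.29, and its 48 h change there was not called (-0.03 ± 0.24, adjusted p = 0.964). Its change was larger at P7 by 1.76 ± 0.33 (adjusted p = 0.00927), a call that 1 left-out array took to an adjusted p of 0.056. The highest P7 value of Mog, 10.53, was below every P21 array outside 24 h, the lowest of which was 10.94. Fa2h (1.33 ± 0.28, adjusted p = 0.0163) and Mobp (1.41 ± 0.32, adjusted p = 0.0234) also rose more at P7.

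Gabra6, whose P21 means lay between 9.93 and 10.26, rose more at P7 by 1.70 ± 0.36 (adjusted p = 0.0169), a call lost without the term (adjusted p = 0.0565). Pvalb (0.95 ± 0.18, adjusted p = 0.00927), Nefh (1.12 ± 0.23, adjusted p = 0.0163) and Snap25 (0.51 ± 0.11, adjusted p = 0.0257) did so too. St8sia2, flat at P21 with means from 5.34 to 5.41, fell more at P7 by 1.45 (± 0.32, adjusted p = 0.0234), and at 48 h its P7 arrays, at 5.42 to 5.96, had come near that level. Dpysl3 differed by -0.67 (adjusted p = 0.0471). Of 26 genes of immature neurons, 3 fell more at P7.

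Among the named genes the largest difference between the ages was that of Hr. Its P21 means fell from 8.26 at 6 h through 7.65 and 7.42 to 6.50 at 48 h, while its P7 arrays of 48 h stood at 6.36, 6.45 and 4.88. The P21 decline was -1.34 ± 0.27 (adjusted p = 0.0121), and the difference between the ages was 2.48 ± 0.39 (adjusted p = 0.0013), with an adjusted p of at most 0.0144 with any single P7 control array left out. Dio2 (2.15 ± 0.48, adjusted p = 0.0234) and Klf9 (0.99 ± 0.18, adjusted p = 0.00927) differed the same way, so that 3 of 11 thyroid hormone responsive genes rose more at P7. Bcl11b, a transcription factor of projection neurons, fell at P7 to 5.40, 5.93 and 5.25 at 48 h from values of 6.48 to 7.43 at 6 and 12 h, and its change was lower at P7 by 1.68 (adjusted p = 0.0133), a call lost without the term (adjusted p = 0.158).

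None of the 12 repressor and D-box arm or 6 activator arm clock genes differed between the ages in this limma test, and 3 of 20 glucocorticoid-responsive genes did, Klf9, Sgk1 and Nfkbia. Dbp was lower at P7 at every time than the mean at P21, and its 48 h change differed by 0.64 ± 0.25 (adjusted p = 0.226). Its P21 means were 9.93, 9.001, 10.06 and 9.96 at 6, 12, 24 and 48 h. At P21 0.54% of all genes rose and 0.799% fell from the early mean to 48 h. Fkbp5 fell there by 1.05 (± 0.15, adjusted p = 0.000295) and Sult1a1 by 1.45 (± 0.23, adjusted p = 0.000872). The difference between the ages was 0.21 ± 0.21 for Fkbp5 and 0.10 ± 0.32 for Sult1a1 (adjusted p = 0.72 and 0.925), which does not show that the changes were equal. Sgk1 fell at P21 (-0.87 ± 0.17, adjusted p = 0.0091) and was not called at P7, with a difference of 0.99 ± 0.24 (adjusted p = 0.0418) that reached an adjusted p of 0.156 with 1 array left out.

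Between 24 and 48 h, 110 probe sets (0.718%) differed in their change between the ages, or 7 genes more upward (0.0788%) and 63 more downward (0.709%) at P7. Without replicate 1 of 24 h at P7 1 probe set was called, and without replicate 2 of 24 h 866.

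The deafferented P7 nuclei give the same span of 12 to 48 h on the side without nerve input. There 14 of 20 myelin genes rose, 13 of 26 genes of immature neurons fell, and 7 of 17 cholesterol genes rose, beside 13, 8 and 8 in the controls; over all genes 398 rose there (4.48%) and 198 fell (2.23%). Mog rose by 1.61 ± 0.26 (adjusted p = 0.000346), St8sia2 fell by 1.87 (± 0.25, adjusted p = 6.68e-05), Gabra6 rose by 2.12 ± 0.28 (adjusted p = 6.68e-05) and Dbp by 1.82 ± 0.19 (adjusted p = 9.56e-07). Gpc3 had a difference there of -0.41 ± 0.25 (adjusted p = 0.352) and Amn of -0.40 ± 0.32 (adjusted p = 0.506). The difference between the sides was not tested here. Array titles carry the same replicate numbers on both sides, so both nuclei may come from the same mice. The fit did not pair the sides, and a change seen on both is not independent evidence.

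**Figure D5:**
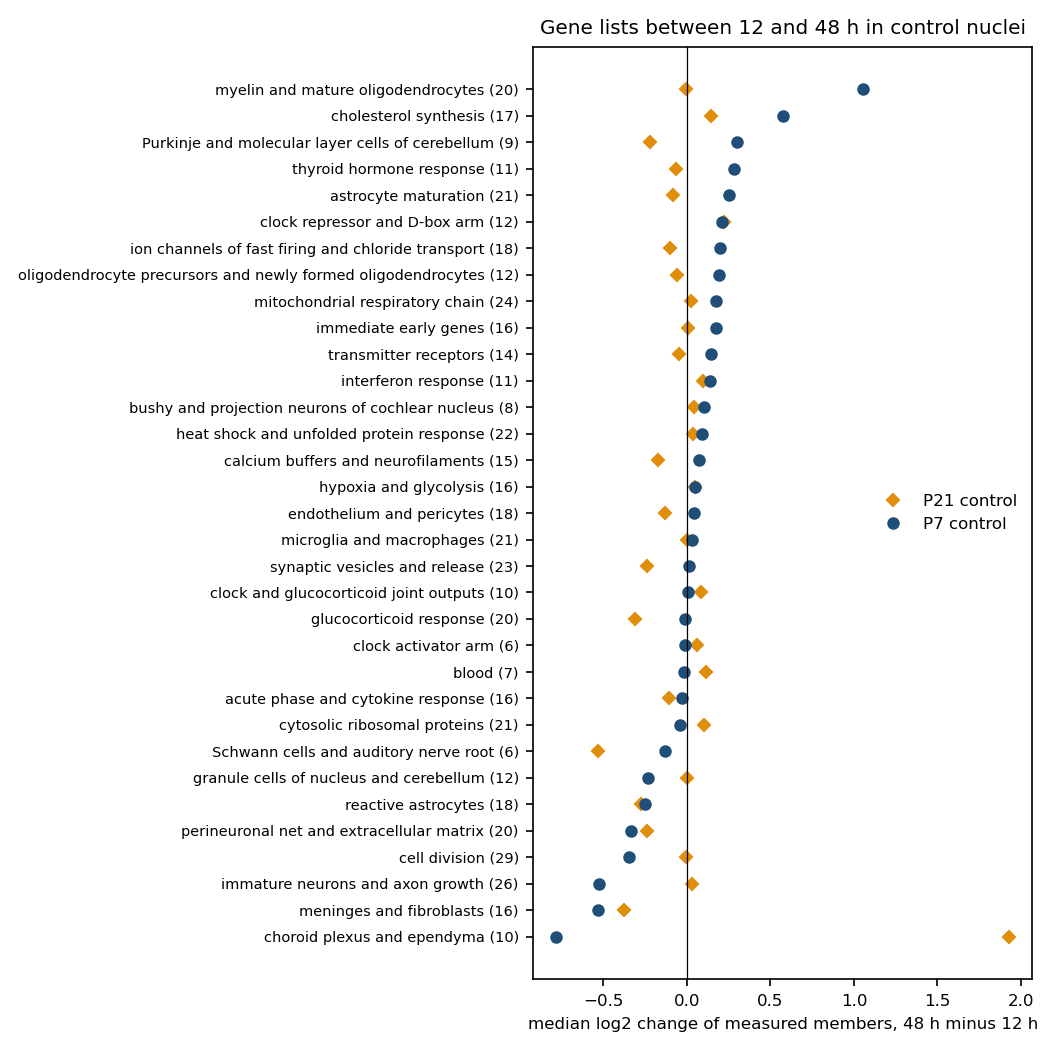
Median log2 change from 12 to 48 h of each gene list in P7 controls (blue) and P21 controls (orange), with the number of measured genes in parentheses. The myelin list stands at 1.05 at P7 and -0.01 at P21, cholesterol synthesis at 0.58 and 0.14, and immature neurons at -0.53 and 0.03. The choroid plexus and ependyma list, whose level varied between pools, stands at -0.78 and 1.93.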

How the data were processed

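Total RNA from dissected cochlear nuclei, snap frozen and extracted on lipid RNA columns with DNase, was hybridised to Affymetrix arrays, per the labels' protocols. The deposited values are log2 levels; the submitters' processing notes name GCRMA, and the sources used here give no version of it. Of 22626 probe sets, 20380 have 1 gene symbol, 691 several and 1555 none in the platform annotation. Probe sets above a log2 level of 5 in at least 2 of the 44 arrays were kept, 15323 in all, of which 1226 lack a single symbol. Where a gene had several kept probe sets, the brightest on average stood for it.

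limma 3.58.1 (R 4.3.3) fitted 16 group means over 44 arrays and 1 term for the replicate 3 arrays of 12 and 48 h, with 27 residual degrees of freedom, a variance trend and Benjamini-Hochberg adjustment over the kept probe sets. The threshold was an adjusted p under 0.05. The number of arrays limits the precision. The script was tested on simulated data. Named genes are the largest changes of each sign (10 each for the 48 h contrasts, 5 each for the others), up to 4 members of each list with the smallest adjusted p, and genes followed whatever their values; Emp1, Clcf1, Nfkbia, Bcl6 and other members named to spell out a small count were chosen after their values were seen. The members and lists were chosen with earlier results of these data known. Alternatives were the term, the arrays used, array weights, a replicate block, the filter, scaling, the variance trend and each P7 control array left out; the term over 6 h as well and the contrasts against 12 h alone were added after seeing the data. Same-numbered P7 control arrays of different times were checked for pairing: of 15 pairs, 2 had a correlation of deviations over 0.1 (range -0.21 to 0.319). The deviations were taken after group means and the term were removed, so the check cannot exclude pairing. Control and deafferented arrays of the same number were not compared in this way or paired in the fit.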

Additional observations from a re-analysis of the deposited data

Results flagged for a closer look

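Changes that differed between P7 and P21 controls, by a limma test of the difference itself, are listed here. For 48 h minus the mean of 6 and 12 h, 123 probe sets differed. The largest named differences, P7 minus P21 on the log2 scale, were 2.48 for Hr, 2.15 for Dio2, 1.76 for Mog, 1.70 for Gabra6 and 1.66 for Tspan2, and in the other direction -2.09 for Amn, -2.003 for S100a8, -1.78 for Tmem43, -1.68 for Bcl11b and -1.51 for Efna3. S100a8, a neutrophil protein, lay between 3.32 and 4.31 in all P7 control arrays, below the log2 level of 5, so its difference comes from P21, where its mean went from 3.95 at 6 h to 5.74 at 48 h. Without the term for replicate 3, 5 of these 10 lost their call, with adjusted p-values of 0.0565 for Gabra6, 0.0695 for Tspan2, 0.355 for Tmem43, 0.158 for Bcl11b and 0.153 for Efna3.

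For 48 h minus 24 h, 110 probe sets differed. The count was 1 without replicate 1 of 24 h at P7, 32 without replicate 1 and 33 without replicate 3 of 48 h, and 866 without replicate 2 of 24 h. The largest named differences were 1.87 for Slc6a5, 1.43 for Cit, 1.11 for Adam11, 1.10 for Gpr146 and 0.92 for Ide, and in the other direction -2.80 for Serpinb1b, -2.52 for Krt8, -2.19 for Aplnr, -2.11 for Amn and -2.08 for Fap. Slc6a5 lay between 2.66 and 3.56 in all P7 control arrays, below 5, and its P21 mean went from 4.52 at 24 h to 3.13 at 48 h, so these means are below 5 as well. All 10 lost their call without the term, and all 10 with some single P7 control array left out.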

How the results depend on the processing

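Counts are probe sets called by limma. For 48 h minus the mean of 6 and 12 h the 1333 became 410 without the term, 230 with control arrays alone, 2545 with array weights and 396 against 12 h alone, and 533 to 1628 with 1 array left out. For 48 h minus 24 h the 420 became 81 without the term, 0 with control arrays alone (1702 at an unadjusted p under 0.05), 199 with array weights and 66 to 1335 with 1 array left out. For 24 h minus the early mean the 1126 became 278 without the term, 11 with control arrays alone, 2584 with no filter, 287 with the term also over 6 h, 142 against 12 h alone and 455 to 1911 with 1 array left out. For 12 h minus 6 h the 1320 became 0 without the term (1152 unadjusted), 199 with control arrays alone, 4520 with no filter, 873 above a log2 level of 6, 103 with the term also over 6 h and 247 to 1531 with 1 array left out. For the difference between ages over 48 h the 123 became 30 without the term, 307 without the 8 replicate 3 arrays, 24 with control arrays alone, 936 with array weights and 18 to 240 with 1 array left out. For that difference over 48 h minus 24 h the 110 became 0 without the term (2059 unadjusted), 0 with control arrays alone (2452 unadjusted), 1 with array weights and 1 to 866 with 1 array left out.

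The replicate block gave 1391, 1098, 1869, 1345, 146 and 132 in the same order, and whether the numbers pair the samples was not settled. With the term also over 6 h, Syt13 turned to -0.19 for 12 h minus 6 h and Gfap to -0.66 for 48 h minus the early mean. The cause of these shifts was not tested. Quantile normalisation and median subtraction moved the split of higher and lower calls by over 10 points for 48 h minus 24 h (208 and 189, 171 and 148), for 24 h minus the early mean (494 and 559, 473 and 575) and for the difference between ages over 48 h (90 and 61, 84 and 44).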
